A study of Mus musculus with 7 samples.

Results

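Among 8 clock output genes in the livers of Western diet-fed mice, Hlf stood at about 0.506 times the level in high bile acid (H-TBA) livers that it had in low bile acid (L-TBA) livers. Bhlhe40 was lower by a smaller amount, and the other 6 genes were not called. The 8 genes are Dbp, Tef, Hlf, Nfil3, Ciart, Bhlhe40, Bhlhe41 and Usp2. They were chosen by symbol from the 37620 Ensembl genes of the count table, where each has 1 row, and all 8 passed the filter on low counts.

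RNA was sequenced from whole, flash-frozen liver of C57BL/6 mice, all of which ate a fatty, sugary Western diet over 30 weeks. There were 4 libraries from H-TBA mice, which had high total bile acids, and 3 libraries from L-TBA mice, which had low total bile acids. No allele or drug was named for either group. Nothing in the labels ties a library to 1 animal, so p-values reflect variation among libraries that may be technical. The hour of the day at which livers were taken is not given in the sources used here.

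The circadian clock of the hepatocyte is a feedback loop in which CLOCK and BMAL1 (gene Arntl) switch on genes through E-box sequences, and the PER and CRY proteins hold them back. The output genes carry that rhythm onward. DBP, TEF and HLF are the PAR bZIP transcription factors, which activate genes through a sequence called the D-box, and NFIL3 (also E4BP4) is a bZIP repressor of the same sequence that runs out of phase with them. BHLHE40 and BHLHE41 (DEC1 and DEC2) are bHLH repressors at E-boxes, CIART (CHRONO) represses CLOCK and BMAL1 directly, and USP2 is a rhythmic deubiquitinase. In mouse liver the transcripts of most of these genes rise and fall strongly each day, so the hour of collection has a large bearing on any single measurement.

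Promoter sequences are shown for Ciart and Tef, whose windows hold the E-box, and for Hlf, the member with the clearest difference between the groups. RefSeq windows of 300 bases (250 before and 50 after an annotated start, build GRCm38.p6) were found for 7 of the 8 genes, with 2 windows for Tef. Capitals mark a match to the E-box CACGTG, and every window is read 5′ to 3′ along the gene.
Ciart, chr3:95882179-95882478, minus strand: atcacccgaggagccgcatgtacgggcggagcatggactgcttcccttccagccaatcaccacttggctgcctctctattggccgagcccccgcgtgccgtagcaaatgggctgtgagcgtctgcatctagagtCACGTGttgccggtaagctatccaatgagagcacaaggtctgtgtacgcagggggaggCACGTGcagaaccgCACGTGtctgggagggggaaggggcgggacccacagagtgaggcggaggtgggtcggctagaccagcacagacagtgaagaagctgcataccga
Tef upstream start, chr15:81802423-81802722, plus strand: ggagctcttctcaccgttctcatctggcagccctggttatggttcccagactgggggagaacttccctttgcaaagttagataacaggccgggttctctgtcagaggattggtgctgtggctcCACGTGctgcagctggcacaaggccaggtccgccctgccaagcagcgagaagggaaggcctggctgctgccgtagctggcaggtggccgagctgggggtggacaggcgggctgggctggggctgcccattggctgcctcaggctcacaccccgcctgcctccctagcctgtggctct
Tef downstream start, chr15:81811164-81811463, plus strand: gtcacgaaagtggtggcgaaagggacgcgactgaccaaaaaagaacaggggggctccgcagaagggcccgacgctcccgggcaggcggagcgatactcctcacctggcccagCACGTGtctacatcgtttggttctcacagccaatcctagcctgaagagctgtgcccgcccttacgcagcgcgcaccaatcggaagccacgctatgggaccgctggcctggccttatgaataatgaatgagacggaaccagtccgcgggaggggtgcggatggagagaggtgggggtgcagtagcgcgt
Hlf, chr11:90390868-90391167, minus strand: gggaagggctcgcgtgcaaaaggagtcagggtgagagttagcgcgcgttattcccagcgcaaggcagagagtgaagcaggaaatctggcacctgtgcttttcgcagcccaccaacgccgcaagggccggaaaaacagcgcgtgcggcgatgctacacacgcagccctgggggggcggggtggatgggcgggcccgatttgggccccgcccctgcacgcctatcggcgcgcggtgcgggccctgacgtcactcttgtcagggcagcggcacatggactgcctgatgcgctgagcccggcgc
The motifs searched, on both strands, were the E-box CACGTG, its variant CACGTT, the D-box as TTACGTAA or TTATGTAA, and the nuclear receptor half-site AGGTCA. No match overlapped another in these windows. The Ciart window held 3 E-boxes, which began 116, 58 and 44 bases before the start. Each Tef window held 1, beginning 127 bases before the upstream start and 138 bases before the downstream start. The Bhlhe41 window held 1 E-box, and the Nfil3 window 1 half-site 12 bases before the start. No match was found in the windows of Dbp, Hlf and Usp2, which says only that these letters are not in those 300 bases. Across all 32851 promoter windows of the table, 7.15% held CACGTG, 4.68% CACGTT, 0.119% TTACGTAA, 0.938% TTATGTAA and 16.3% AGGTCA. A match is a description of the sequence and not evidence of binding.

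The libraries held between 9996990 and 12152613 counts. Hepatocyte transcripts dominated as the tissue label says. The 6 hepatocyte markers summed to between 52610 and 59790 CPM (counts scaled to library size) in H-TBA and between 59430 and 67830 CPM in L-TBA. Of these 6 markers 2 were called lower in H-TBA and 0 higher. All 6 bile duct markers were called higher in H-TBA, summing to between 913 and 1755 CPM against 430.7 to 688 CPM in L-TBA. Of 6 macrophage markers 3 were called lower in H-TBA, with sums of 169.6 to 248 CPM against 368 to 567 CPM in L-TBA. Of 5 endothelial markers 2 were called lower in H-TBA, with sums of 104.5 to 128 CPM against 136 to 178 CPM in L-TBA. In bulk tissue, fewer cells of a type and less RNA per cell cannot be told apart. On the first principal component (64.7% of the variance) H-TBA 1 lay at -10.7, H-TBA 2 to 4 between -43.5 and -34.6, and the L-TBA libraries between 36.8 and 45.2, so the fold changes and counts of calls below were also computed without H-TBA 1.

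Of the 8 genes, 2 were called lower in H-TBA and 0 higher at an adjusted p under 0.05 (edgeR quasi-likelihood test, adjusted over all 15249 genes tested). Across all genes tested, 10.7% were called lower and 13.1% higher, so with 8 members the count of calls does not set them apart from the rest. The median log2 fold change (H-TBA over L-TBA) was -0.27 over the 8 genes and 0.00 over all genes tested. The same 2 genes were the members with an unadjusted p under 0.05.

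**Figure D1:**
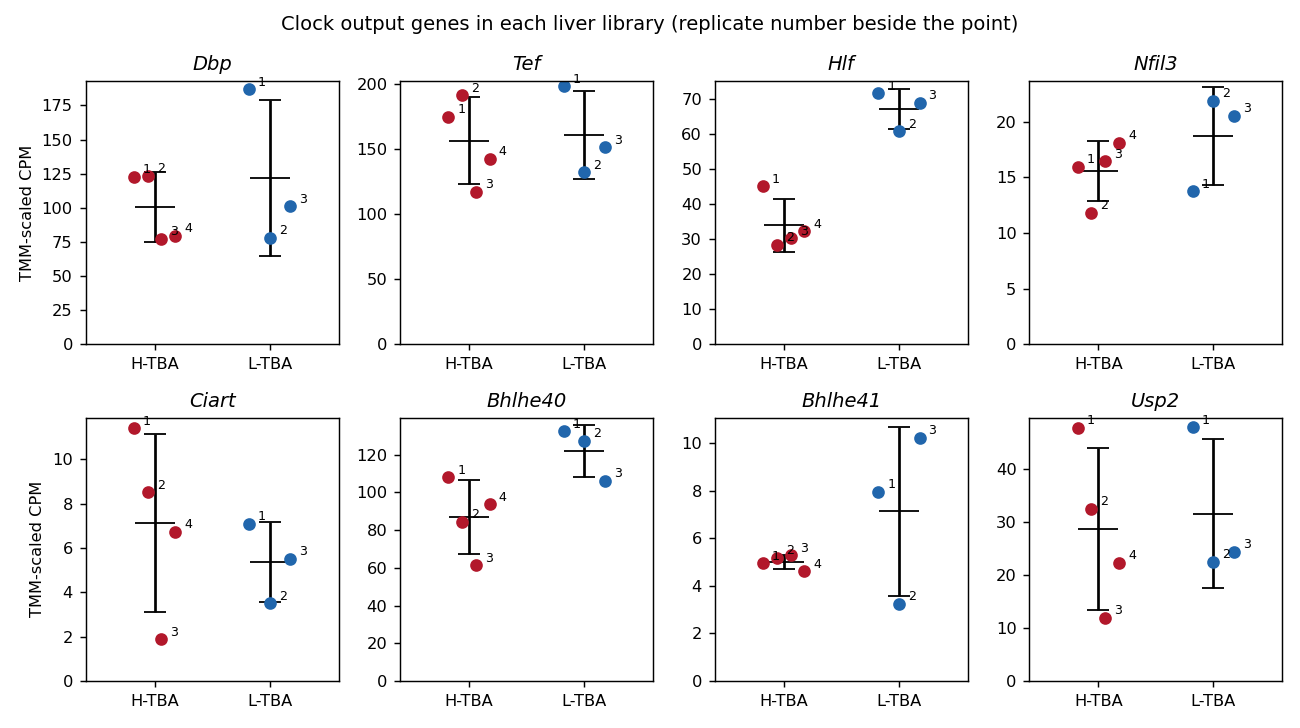
TMM-scaled CPM of each clock output gene (vertical axes, starting at 0) in the 4 H-TBA and 3 L-TBA libraries; each point is 1 library with its replicate number, and the bars give the mean ± SD. Hlf is the 1 panel in which the groups do not overlap, with H-TBA libraries up to 45.1 CPM and L-TBA libraries from 60.8 CPM.

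Hlf encodes the hepatic leukaemia factor, a PAR bZIP activator. It had 45.1, 28.3, 30.25 and 32.3 CPM in the H-TBA livers, against 71.7, 60.8 and 69.0 CPM in the L-TBA livers. Every H-TBA library was below every L-TBA library, and the highest of the H-TBA libraries was H-TBA 1. In 16.3% of all genes tested the groups were apart in that direction. Hlf averaged 34.0 ± 7.59 CPM in H-TBA (SD, n = 4) and 67.2 ± 5.65 CPM in L-TBA (SD, n = 3). The log2 fold change was -0.98 ± 0.14 (SE; 95% interval -1.29 to -0.67), with an adjusted p of 0.000793 by edgeR. In absolute size this fold change was larger than that of 90.3% of the genes tested. Without H-TBA 1 it was -1.15. In all 16 alternatives run the call was kept, at values between -1.15 and -0.83. The summed hepatocyte markers of 3 H-TBA libraries were below every L-TBA library, by far less than Hlf, and 2 of those 6 markers were called lower. The macrophage and endothelial sums of all 4 H-TBA libraries were also below every L-TBA library. Within those lists 3 of 6 and 2 of 5 markers were called lower, and 1 marker of each had a positive log2 fold change. The part of these cells in the difference was not tested.

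Dbp encodes the D-box binding protein, usually the most strongly rhythmic of the PAR bZIP factors. It had 123, 123, 77.1 and 79.5 CPM in the H-TBA livers, against 187, 78.0 and 101 CPM in the L-TBA livers. The groups overlapped, and L-TBA 1 stood far above the other libraries. The log2 fold change was -0.28 ± 0.27 (95% interval -0.87 to 0.31; adjusted p = 0.49 by edgeR), and it turned to 0.17 without L-TBA 1. Tef encodes the thyrotroph embryonic factor. It had 175, 191.5, 117 and 143 CPM in H-TBA, against 198, 132 and 151 CPM in L-TBA. The groups overlapped almost fully, and the log2 fold change was -0.04 ± 0.17 (95% interval -0.42 to 0.34; adjusted p = 0.903), with a sign that turned under 4 of 16 alternatives. These intervals do not reach the estimate for Hlf, but that of Dbp overlaps the interval of Hlf (-1.29 to -0.67). Both the Dbp and the Tef interval allow differences of moderate size in either direction.

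Set against its relatives within each library, Hlf had a log2 ratio of CPM to Tef of -2.20 ± 0.38 in H-TBA (SD, n = 4) and -1.24 ± 0.20 in L-TBA (SD, n = 3). The groups did not overlap. The log2 ratio of Hlf to Dbp was -1.55 ± 0.38 in H-TBA and -0.76 ± 0.54 in L-TBA, and here the groups overlapped. These ratios were chosen after the values had been seen and are a description; whether Hlf differs from the other PAR bZIP genes was not tested.

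Nfil3, the bZIP repressor of D-box genes, had 16.0, 11.8, 16.4 and 18.1 CPM in H-TBA, against 13.7, 21.9 and 20.5 CPM in L-TBA. H-TBA 2 was the lowest library and L-TBA 1 the next, the libraries in which Dbp ranked second and first. The groups overlapped, at a log2 fold change of -0.26 ± 0.18 (95% interval -0.64 to 0.13; adjusted p = 0.325 by edgeR).

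Bhlhe40, an E-box repressor that hypoxia also induces, had 108, 84.3, 61.4 and 93.8 CPM in H-TBA, against 132, 127 and 106 CPM in L-TBA. H-TBA 1 lay just above L-TBA 3, and all other H-TBA libraries lay below the L-TBA libraries. The means were 86.9 ± 19.6 CPM in H-TBA (SD, n = 4) and 122 ± 13.9 CPM in L-TBA (SD, n = 3). The gene passed narrowly, at a log2 fold change of -0.49 ± 0.16 (95% interval -0.84 to -0.14; adjusted p = 0.0444 by edgeR). The call was lost without H-TBA 2, 3 or 4 or L-TBA 1 or 2 (adjusted p = 0.103, 0.0591, 0.0746, 0.142 and 0.119), with the stricter filter, with the robust fit and with library totals. Across alternatives the adjusted p lay between 0.00754 and 0.142, and the value stayed negative in all of them, between -0.61 and -0.35. Without H-TBA 1 it was -0.61.

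Bhlhe41, its paralog, had 4.95, 5.18, 5.29 and 4.61 CPM in H-TBA, against 7.95, 3.23 and 10.2 CPM in L-TBA. The H-TBA libraries were close together, at counts of 53 to 65, while the L-TBA libraries lay on both sides of them. Counts this low carry counting error, so the closeness is not read as a trait of the group. The log2 fold change of -0.50 ± 0.30 did not pass (95% interval -1.16 to 0.15; adjusted p = 0.253 by edgeR), but without L-TBA 2 it was -0.86 and passed (adjusted p = 0.0102). L-TBA 3, where Bhlhe41 was highest, also had the highest summed levels of 4 B cell markers (35.2 CPM, against 3.46 to 10.98 CPM in the H-TBA libraries and 6.10 and 6.65 CPM in the other L-TBA libraries) and of the macrophage markers (567 CPM). The part of these cells in the value was not tested.

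Ciart, the CLOCK and BMAL1 repressor with 3 E-boxes in its window, had 11.4, 8.50, 1.87 and 6.72 CPM in H-TBA, against 7.08, 3.50 and 5.51 CPM in L-TBA. The highest and the lowest of the 7 libraries were both H-TBA, and they differed by a factor of 6.10. The log2 fold change was 0.39 ± 0.45 (95% interval -0.59 to 1.37; adjusted p = 0.569 by edgeR), the 1 positive value among the 8 genes. Usp2 had 47.7, 32.45, 11.9 and 22.3 CPM in H-TBA, against 47.85, 22.5 and 24.3 CPM in L-TBA. Its log2 fold change was -0.16 ± 0.38 (95% interval -1.0 to 0.69; adjusted p = 0.807), and the sign turned without H-TBA 3 or L-TBA 1. For these genes the spread within groups was larger than the difference between them, and the intervals include a 2-fold higher level for Ciart and a 2-fold lower level for Usp2.

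**Figure D2:**
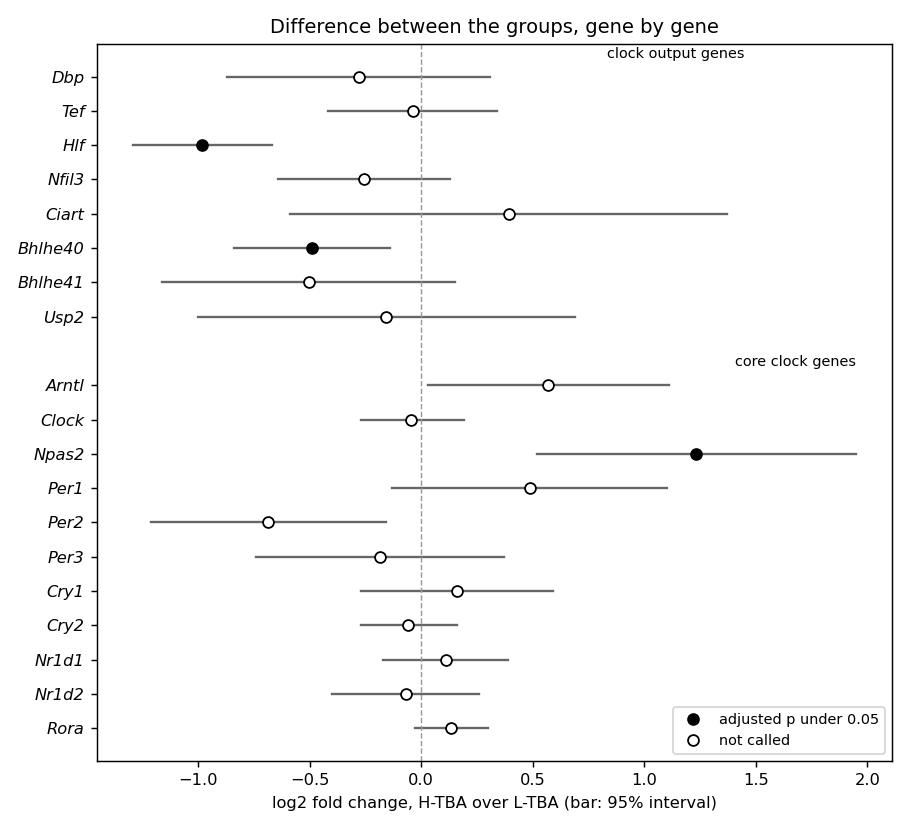
Log2 fold changes of H-TBA over L-TBA (horizontal axis) for the 8 clock output genes and 11 core clock genes; points are edgeR estimates, bars are 95% intervals, and filled points have an adjusted p under 0.05. Hlf at -0.98, Bhlhe40 at -0.49 and Npas2 at 1.23 are the filled points.

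Levels were compared between genes as CPM per kilobase of exon, with lengths from GENCODE M21. In L-TBA livers Dbp was the most abundant at 40.75 ± 19.2 CPM per kilobase, followed by Bhlhe40 at 25.9 ± 2.96 and Tef at 20.4 ± 4.32, whose values do not differ beyond their spread from the neighbour above. Hlf at 10.1 ± 0.85, Nfil3 at 9.24 ± 2.16 and Usp2 at 6.55 ± 2.93 formed the middle, with neighbours within the spread of each other, while Tef and Hlf differed beyond theirs. Ciart at 2.37 ± 0.79 and Bhlhe41 at 1.06 ± 0.53 CPM per kilobase were the least abundant. In H-TBA livers Dbp was again first at 33.6 ± 8.62 and Bhlhe41 last at 0.745 ± 0.0444 CPM per kilobase. Hlf, at 5.09 ± 1.14 CPM per kilobase in H-TBA, was below Nfil3 at 7.69 ± 1.32 and, within the spread, Usp2 at 5.94 ± 3.17.

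Several of these genes varied widely between libraries of 1 group. L-TBA 1 had the highest value of 5 of the 8 genes (Dbp, Tef, Hlf, Bhlhe40 and Usp2), and H-TBA 3 the lowest value of 5 (Dbp, Tef, Ciart, Bhlhe40 and Usp2). In the H-TBA group the highest library exceeded the lowest by a factor of 6.10 for Ciart, 4.02 for Usp2, 1.76 for Bhlhe40, 1.63 for Tef, 1.599 for Dbp, 1.59 for Hlf, 1.53 for Nfil3 and 1.15 for Bhlhe41. In the L-TBA group the factors were 3.16 for Bhlhe41, 2.40 for Dbp, 2.13 for Usp2, 2.02 for Ciart, 1.595 for Nfil3, 1.499 for Tef, 1.25 for Bhlhe40 and 1.18 for Hlf. The smallest of the 7 counts behind these values was 23 for Ciart and 36 for Bhlhe41, and at least 121 for each other gene.

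Tef followed Dbp from library to library. Log2 CPM of the pair had a Pearson correlation of 0.91 over the 7 libraries (permutation p = 0.005, 0.0347 adjusted over 7 pairs) and a Spearman rho of 1.0 (permutation p = 0.0004, 0.0028 adjusted). With the libraries farthest from the median of Dbp left out (L-TBA 1 and H-TBA 3) the Pearson value was 0.95, and 0.93 on deviations from the group means. Usp2 also followed Dbp, at 0.84 (permutation p = 0.0123, 0.0431 adjusted) and a rho of 0.93 (permutation p = 0.0067, 0.0236 adjusted), with 0.84 when the same libraries were left out. Nfil3 had the opposite sign at -0.66 and a rho of -0.71, which did not pass (adjusted permutation p = 0.243 and 0.154); on deviations from the group means it was -0.87. Ciart at 0.62, with a rho of 0.82 (adjusted permutation p = 0.243 and 0.0796), Bhlhe41 at 0.52 and Bhlhe40 at 0.46 did not pass. The value for Bhlhe40 rested on L-TBA 1 and H-TBA 3, being -0.45 without them. For Hlf no pooled value is given, because its libraries fall apart by group and each group has fewer than 6; on deviations from the group means it was 0.43.

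**Figure D3:**
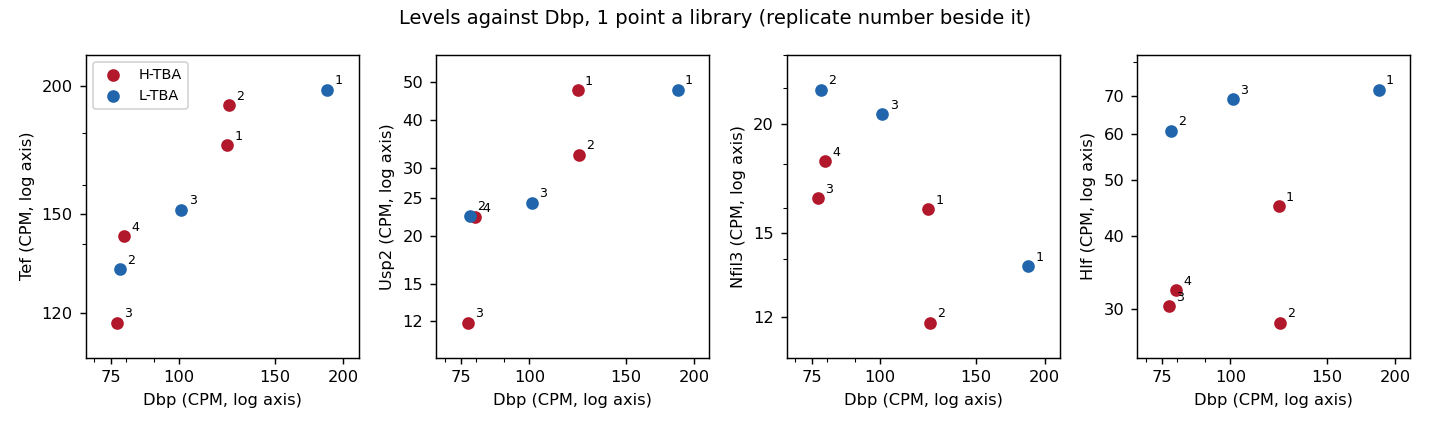
CPM of Tef, Usp2, Nfil3 and Hlf (vertical log axes) against CPM of Dbp (horizontal log axes), 1 point a library with its replicate number, H-TBA in red and L-TBA in blue. Tef and Usp2 rise along Dbp with the groups intermixed, Nfil3 runs the other way, and the H-TBA libraries lie below the L-TBA libraries for Hlf.

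All 15248 other genes tested were ranked by the Pearson correlation of their log2 CPM with that of Dbp over the 7 libraries, as a description of likeness and without a test. The first 5 with a symbol were Dhcr7 at 0.98, Csnk1g3 at 0.95, the clock gene Per3 at 0.95, Fkbp4 at 0.94 and Gm13075 at 0.94. With 7 libraries and so many genes, values near 1 are easily reached. Among the members and core clock genes, Nr1d2 ranked 17 (0.92), Tef 20 (0.91), Per2 76 (0.85) and Usp2 80 (0.84). At the other end, Arntl ranked 15015 (-0.77) and Nfil3 14587 (-0.66).

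**Figure D4:**
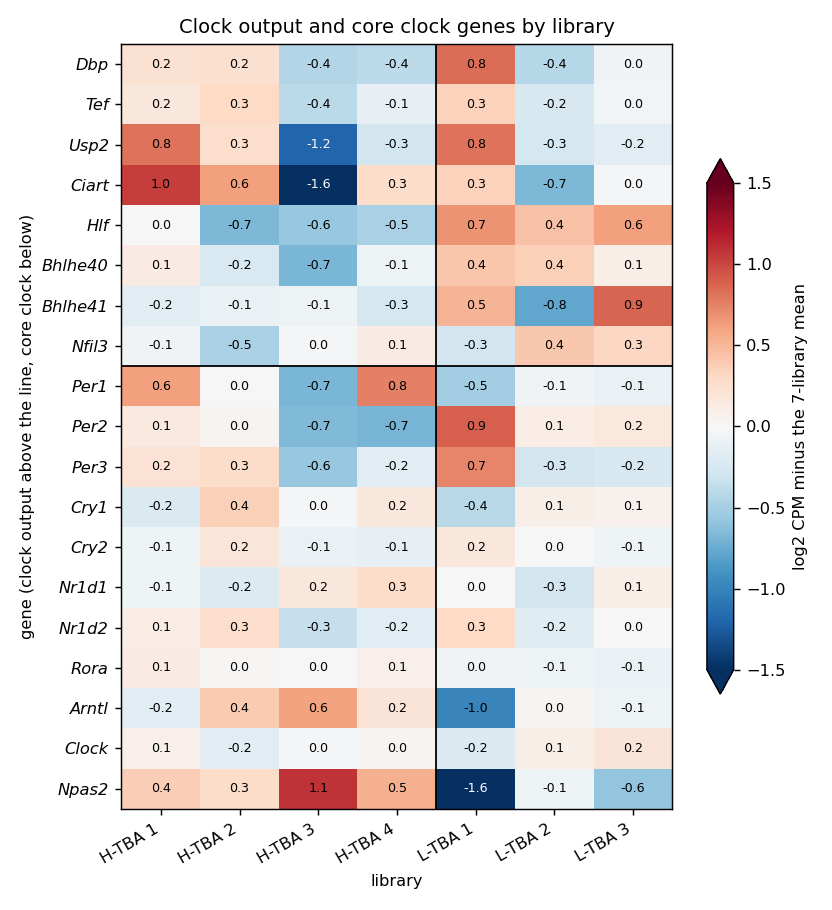
Log2 CPM minus the mean of the 7 libraries (colour, red higher and blue lower, with the value printed) for the clock output genes above the line and the core clock genes below it, H-TBA libraries on the left and L-TBA libraries on the right. L-TBA 1 has Dbp, Usp2, Per2 and Per3 above and Arntl and Npas2 below their means, H-TBA 3 shows the reverse, and Hlf is lower in every H-TBA library than in any L-TBA library.

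Of 11 core clock genes, 1 was called higher in H-TBA and 0 lower by edgeR, where 13.1% of all genes tested were higher and 10.7% lower. An unadjusted p under 0.05 was found for 3 of the 11. The share of all genes under that limit was not computed. Npas2, a partner of BMAL1 that can stand in for CLOCK, had 4.48, 4.20, 7.32 and 5.02 CPM in H-TBA, against 1.12, 3.32 and 2.30 CPM in L-TBA. The groups did not overlap, as for 17.2% of all genes tested in that direction, and the log2 fold change was 1.23 ± 0.33 (adjusted p = 0.0183), but the call was lost without L-TBA 1 (0.90, adjusted p = 0.0643) and the adjusted p ran from 0.00299 to 0.0643. Arntl was at 0.57 ± 0.25 (adjusted p = 0.12) and Per2 at -0.69 ± 0.24 (adjusted p = 0.0607); neither passed. Without H-TBA 1 both were called, Arntl higher and Per2 lower. Per2 was also called by DESeq2 (adjusted p = 0.0305), by limma-voom (0.0237) and by edgeR with no filter (0.0185). Arntl was also called by limma-voom (adjusted p = 0.0484). In all, 4 of 16 alternatives called Per2 and 2 of 16 called Arntl. L-TBA 1 held the lowest value of 4 of the 11 genes (Arntl, Npas2, Clock and Cry1) and the highest of 3 (Per2, Per3 and Nr1d2). Clock, Cry2, Nr1d1 and Rora varied little, with the highest library of either group at most 1.40 times its lowest. The nuclear receptors of the clock, Nr1d1 at 0.11 ± 0.13 and Nr1d2 at -0.07 ± 0.15, did not pass. Rora, which encodes an activator that competes with them, was at 0.13 ± 0.07 with groups that did not overlap (adjusted p = 0.212 by edgeR; called with library totals at 0.0171), and Per1 was at 0.49 ± 0.28 (adjusted p = 0.236; called without H-TBA 3 at 0.025). How far a difference in the hour of collection accounts for any of these values was not tested.

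Of 9 genes described as targets of the PAR bZIP factors in mouse liver, 3 were called lower and 2 higher in H-TBA, against 10.7% lower and 13.1% higher among all genes tested. The median log2 fold change was -0.38, with 4 values positive and 5 negative. By edgeR, 8 had an unadjusted p under 0.05, and the share of all genes under that limit is not given here. The number higher was 1 with DESeq2, the stricter filter or the robust fit, and 4 with library totals or no filter. Nr1i3, which encodes the xenobiotic receptor CAR, fell to 105 ± 19.1 CPM in H-TBA (SD, n = 4), against 255 ± 30.7 CPM in L-TBA (SD, n = 3), a log2 fold change of -1.28 ± 0.14 with an adjusted p of 0.000239 by edgeR. Ppara, the receptor that drives fatty acid oxidation, fell to 54.89 ± 13.99 CPM in H-TBA, against 117 ± 8.79 CPM in L-TBA (-1.09 ± 0.16, adjusted p = 0.00094). Cyp2c37, a P450 enzyme whose reads may be shared with close paralogs, fell by 1.68 on the log2 scale. The genes called higher were named after their values were seen. Por, the electron donor of the P450 enzymes, rose to 583 ± 77.7 CPM in H-TBA, against 356 ± 30.75 CPM in L-TBA (0.71 ± 0.12, adjusted p = 0.00214). Cyp2b10 passed at an adjusted p of 0.0351 by edgeR. Its call was lost without any 1 of the L-TBA libraries and with the robust fit. It was near the floor, with 1, 4 and 0 counts in L-TBA 1 to 3. H-TBA 1, 3 and 4 had 11, 12 and 12 counts, and H-TBA 2, at 108, stood far above them.

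In a further list of 9 rhythmic liver genes, 1 was called higher and 1 lower, near the shares of 13.1% and 10.7% among all genes tested, with a median log2 fold change of -0.18. Noct, the rhythmic nocturnin, rose to 339.9 ± 55.3 CPM in H-TBA (SD, n = 4), against 136 ± 50.9 CPM in L-TBA (SD, n = 3), a log2 fold change of 1.32 ± 0.21 with an adjusted p of 0.00142 by edgeR. Rgs16, a regulator of G protein signalling, fell to 28.8 ± 25.7 CPM in H-TBA, against 105 ± 21.6 CPM in L-TBA (-1.88 ± 0.46, adjusted p = 0.0127, lost with the robust fit at 0.104). Without H-TBA 1, at 66.6 CPM the highest H-TBA library, the log2 fold change of Rgs16 was -2.69. Gys2, the liver glycogen synthase, was not called, at -0.26 ± 0.15 (adjusted p = 0.248).

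The counts of Dbp, Tef, Bhlhe40, Bhlhe41 and Usp2 may include reads from genes on the opposite strand, because the strand setting of the counting is not given. In the GENCODE M21 models 539 of the 2993 exon bases of Dbp overlap Sphk2, and 1280 of the 6720 of Bhlhe41 overlap Gm43909. The overlaps of Tef, Bhlhe40 and Usp2 were 193, 118 and 200 bases. Hlf, Nfil3 and Ciart had none.

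**Figure D5:**
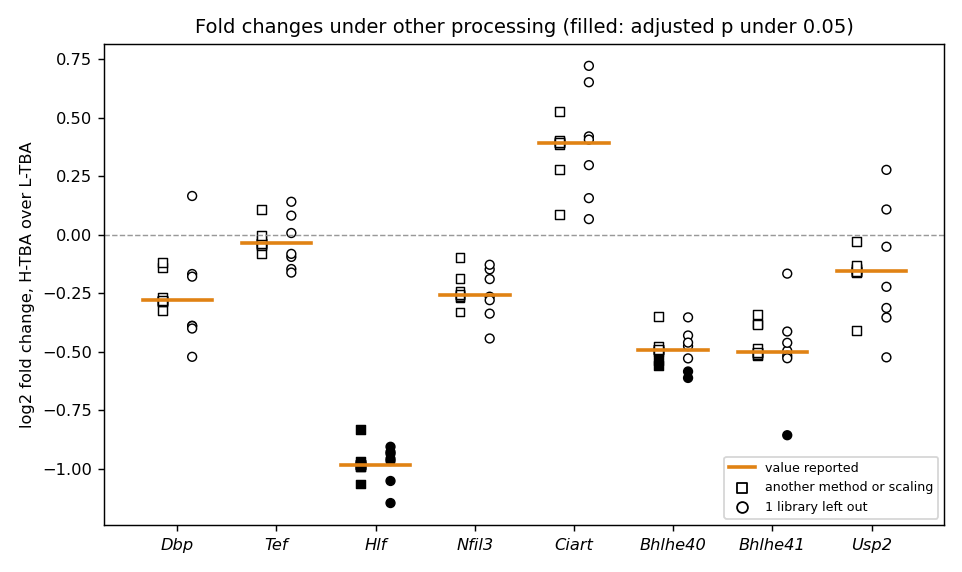
Log2 fold changes of H-TBA over L-TBA (vertical axis) for each clock output gene under the method reported (orange line), 9 other methods or scalings (squares) and each of 7 libraries left out in turn (circles), filled where the adjusted p was under 0.05. Hlf stays filled between -1.15 and -0.83, Bhlhe40 is filled in some, Bhlhe41 is filled only without L-TBA 2, and Dbp, Tef and Usp2 cross 0.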

How the data were processed

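For 7 liver libraries the authors deposited raw, unnormalized whole-number counts of each Ensembl gene. Build mm9 and the tools TopHat2 2.0.11, CASAVA and DESeq2 1.18.1 appear in the submitters' processing notes with no role stated. Which counter, strand setting and annotation release were used is not given in the sources used here. Symbols came from GENCODE M21 (32897 of 37620 identifiers matched). The promoter windows are of build GRCm38.p6 and were not combined with mm9 coordinates.

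Genes were kept with filterByExpr (minimum count 10, total 15), leaving 15249. Groups were compared, H-TBA over L-TBA, with TMM scaling and edgeR 4.0.16 (quasi-likelihood test, R 4.3.3), Benjamini-Hochberg adjusted over all tested genes at 0.05. Standard errors came from the fold change and the F statistic, and the 95% intervals from the test's degrees of freedom. CPM are counts scaled to the TMM-adjusted library size. Depth limits the low genes, since counting error grows as counts fall. Correlations used log2 CPM.

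The alternatives were a stricter filter (minimum count 50) and none, scaling by library totals, by DESeq2 size factors or without the 20 most abundant genes, DESeq2 1.42.0, limma-voom (limma 3.58.1, quality weights), a robust fit, a replicate block and each library left out. The fit was tested on simulated counts. Counts of any pair of libraries in a group differed by a chi-square of at least 5.29 per degree of freedom. No library was therefore the same one sequenced or counted again. This does not exclude separate pieces or preparations of the same liver.

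Named were all 8 members, core clock genes, the 3 genes of each other list with the smallest adjusted p, and the 5 genes most like Dbp. Por and Cyp2b10, the remaining PAR bZIP targets that were called, were named as well. The core clock list was fixed with 1 further gene, which is not reported here; the 11 others are. The members and lists were chosen with earlier results of these data known. Figures used matplotlib 3.10.9.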

Additional observations from a re-analysis of the deposited data

How the results depend on the processing

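Over 33 named genes and 16 alternatives, 466 of 524 values kept their direction and their side of the threshold, 26 lost a call, 15 gained one and 17 changed sign; the cause was not tested unless stated. Library totals moved the median of all genes to 0.16 (log2) and gave 3113 genes higher and 832 lower in H-TBA, against 2003 and 1635; relative to that median Hlf was still lower. Leaving out 1 library gave 1035 (without L-TBA 1) to 2123 genes lower. No pairing was evident: deviations of same-numbered libraries correlated at -0.10, -0.06 and -0.06, no H-TBA library matched its own number best, and the replicate block gave 1166 genes higher and 754 lower and 0 core clock genes higher (Npas2 at an adjusted p of 0.0513). Of the 8 clock output genes, library totals, the stricter filter and the robust fit called 1 lower, against 2, and leaving out 1 library called 1 to 2. Core clock genes higher were 2 with limma-voom and library totals and 0 with the stricter filter, which drops Npas2 from the test, against 1; lower were 1 with DESeq2, with limma-voom and without the filter, against 0. Without 1 library, 0 to 2 were higher and 0 to 1 lower. PAR bZIP targets higher were 1 with DESeq2, the stricter filter and the robust fit and 4 with library totals and no filter, against 2, and 1 to 4 without 1 library. The robust fit left 0 rhythmic genes lower, against 1. Of the other bZIP genes, 0 were higher with DESeq2 size factors, the 20 most abundant genes left out, the stricter filter, the robust fit and the replicate block, against 1; lower were 2 with DESeq2 and no filter, 3 with limma-voom and 0 with library totals, against 1. Without 1 library, 0 to 1 were higher and 1 to 3 lower. Other bHLH genes lower were 1 with limma-voom and 0 to 1 without 1 library, against 0. Signs turned with library totals for Tef (0.11), Clock (0.11), Cry2 (0.096) and Nr1d2 (0.078). Leaving out 1 library turned signs in the ranges -0.52 to 0.17 for Dbp, -0.16 to 0.14 for Tef, -0.52 to 0.28 for Usp2, -0.36 to 0.23 for Per3, -0.16 to 0.038 for Clock, -0.13 to 0.012 for Cry2, -0.18 to 0.066 for Nr1d2 and -0.0001 to 0.58 for Hes1; the highest value came without L-TBA 1 for Dbp, Tef, Usp2, Per3, Cry2 and Nr1d2. These results rest on 4 and 3 libraries and daily rhythms of unknown phase. Among the 8 clock output genes the spread between libraries was widest for Ciart and Usp2 in H-TBA. How much of that spread is counting error was not tested.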

Other observations

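Relatives of the clock output factors outside the 8 genes were too few for their counts of calls to set them apart from the rest. Of 6 further bZIP genes of the C/EBP family and its partners, edgeR called 1 higher and 1 lower, where 13.1% of all genes tested were higher and 10.7% lower. Cebpg, a partner of other C/EBP factors, fell to 63.4 ± 2.76 CPM in H-TBA (SD, n = 4), against 81.2 ± 6.28 CPM in L-TBA (SD, n = 3), a log2 fold change of -0.36 ± 0.08 (adjusted p = 0.00844 by edgeR, lost with library totals at 0.099). Cebpd, an acute phase activator, passed at the threshold with 0.79 ± 0.26 (adjusted p = 0.0499, with 0.015 to 0.17 over the alternatives, 10 of which lost the call). Cebpe was not called, at -0.65 ± 0.24 (adjusted p = 0.0722). Of 4 tested bHLH genes of the HES and HEY families, which share the Orange domain with Bhlhe40 and Bhlhe41, 0 were called by edgeR and 1 had an unadjusted p under 0.05. DESeq2 called 0 of them and limma-voom 1. Hes6, Hes1 and Hey1 were at -0.33 ± 0.13, 0.27 ± 0.23 and 0.28 ± 0.30 (adjusted p = 0.0983, 0.434 and 0.543 by edgeR).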
